A study of Mus musculus with 12 samples.

Results

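Hippocampal subfield marker genes were followed across mouse models of Alzheimer's disease and aging. The 9 genes were chosen by symbol, as genes that mark the hippocampus or one of its subfields, and were read from probes whose accession maps to them: Zbtb20, Wfs1, Fibcd1, Spink8, Dsp, C1ql2, Lct, Tdo2, and Nr3c2. They are 9 of 20882 genes with a symbol and are measured by 10 probes, 2 for Dsp and 1 for each other gene. These 9 were chosen with earlier results of these data known. Nr3c2 also stands in the list of CA2 genes used below.

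The study set expression patterns of animal models against those of human disease, and 12 one-colour Agilent 44K arrays of its mouse models were analysed here. Each array carried RNA pooled from 3 animals, and each model has 1 array, so the arrays of a group are related models and not repeats of 1 condition. The cortex group, an aging series, holds prefrontal cortex of C57BL/6 mice at 1.5, 4, 17, and 22 months. The transgenic hippocampus group holds C57BL/6 mice of 3 lines. They are a line with a mutated human NCSTN transgene at 10 months, a line with wild-type human MAPT at 12 months, and 5×FAD mice at 6 months, a transgenic model of familial Alzheimer's disease. The ICR hippocampus group holds ICR mice that were given an agent at 7 weeks of age. In 4 of these models a ventricle of the brain had been injected 14 days before dissection, with amyloid-β peptide (Aβ) at 5 μM, the same peptide at 10 μM, streptozotocin at 2.5 mg/kg, or streptozotocin at 3 mg/kg. In the fifth, scopolamine at 1 mg/kg had been given intraperitoneally 30 min before. The sources used here do not give the promoters that drive the transgenes.

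The hippocampus is a folded sheet of excitatory neurons. Granule neurons of the dentate gyrus project to CA3 pyramidal neurons, which project to CA1, and a small CA2 field lies between CA3 and CA1. Each field expresses its own set of genes, so bulk tissue carries a mixture whose proportions depend on the fields present and on the RNA made per cell. In such tissue, fewer cells of a type and less RNA per cell cannot be told apart.

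Region, strain, age, and treatment were not independent here. All cortex arrays came from C57BL/6 mice of the aging series, 2 young and 2 old, and all hippocampus arrays came from transgenic or injected animals, so a difference between regions cannot be told apart from these. The methods describe male animals, whereas on the 3 transgenic arrays Xist, which is transcribed from the inactive X of female cells, lay between 9.19 and 9.59 (log2 normalized intensity) and the Y-linked Ddx3y and Eif2s3y were not well above background. The 9 remaining arrays showed the reverse, with Ddx3y between 10.36 and 10.90 and no Xist signal well above background. The comparison of ICR hippocampus with cortex, whose difference of means leaves these 3 arrays out, is therefore given beside the results for each marker. For the marker lists it is given by its counts. Its spread was estimated from all 12 arrays, so these 3 still enter its standard errors and p-values. The 5×FAD array also stood apart within its group, with Gfap, an astrocyte filament gene, at 13.12 against 11.84 and 10.81 on the NCSTN and MAPT arrays. All levels below are log2 of the processed intensity after quantile normalization, and the scanner software's flag was used to say whether a signal was well above background. Levels of different genes come from different probes and were not compared with each other.

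Of the 9 markers, 8 were higher in hippocampus than in cortex and Wfs1 did not pass the test (limma, Benjamini-Hochberg adjusted p under 0.05 over 32809 features). Over all features, 27.0% passed in this comparison, and 12.8% passed as higher in hippocampus. The markers had a median log2 difference of 2.16, against -0.0011 for all features. On 6 of the 9 markers every hippocampus array lay above every cortex array, which 6.25% of the features without a missing value did. Leaving out any 1 array kept 8 markers past the test.

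**Figure D1:**
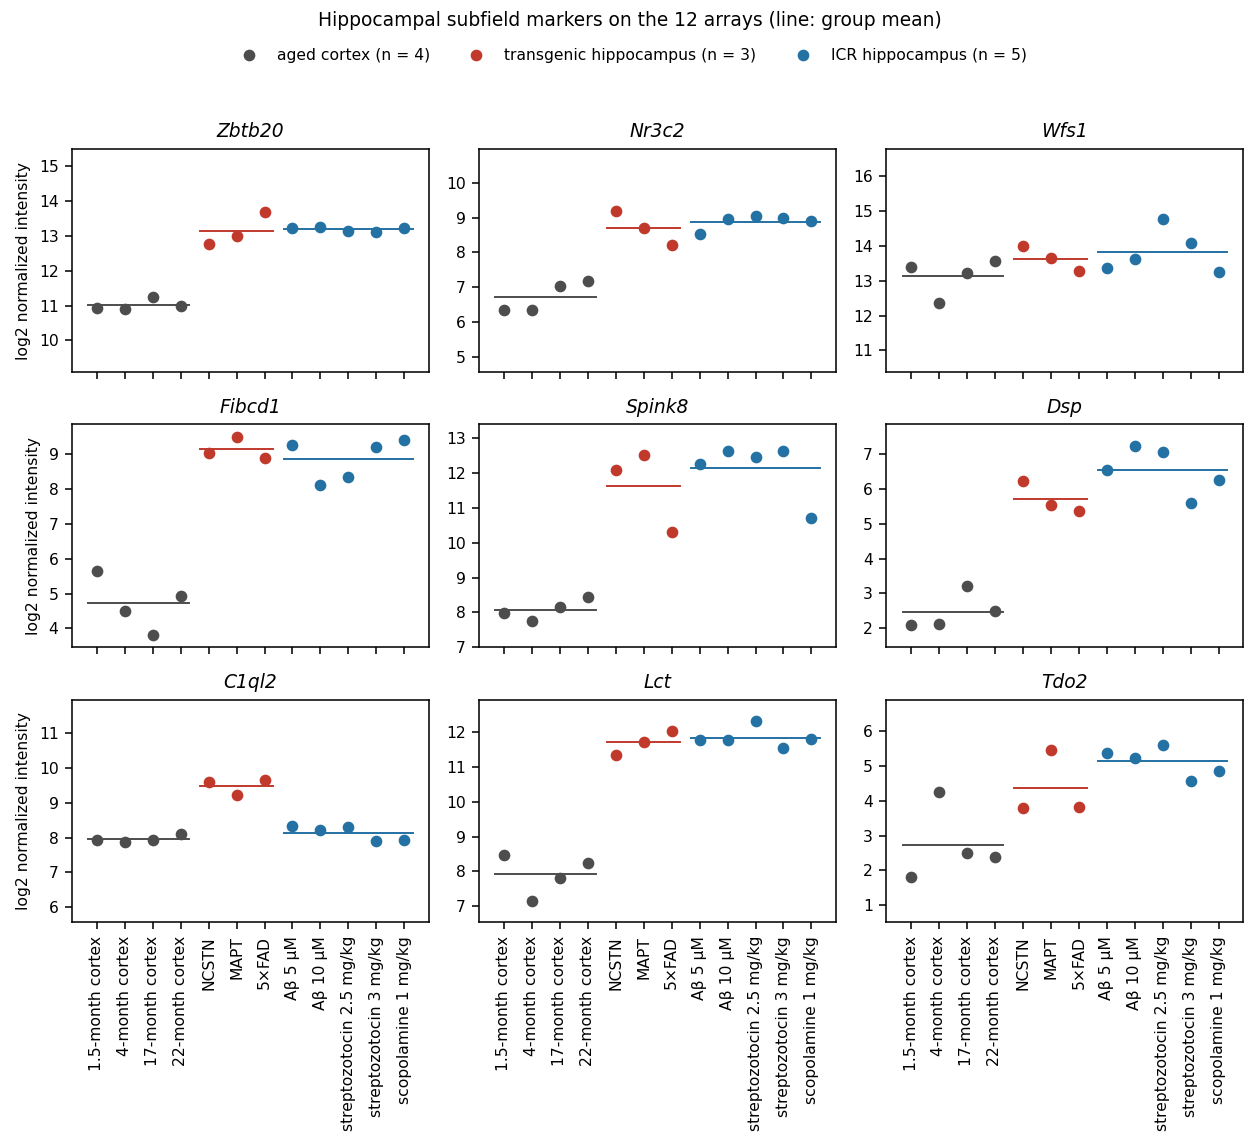
Log2 normalized intensity (y axis, the same span of 6.4 in each panel) of the 9 markers on the 12 arrays (x axis), with a line at each group mean. Zbtb20, Nr3c2, Fibcd1, Spink8, Dsp, and Lct separate cortex from hippocampus without overlap, C1ql2 stands high on the 3 transgenic arrays alone, and Spink8 is low on the 5×FAD (10.30) and scopolamine (10.72) arrays.

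Zbtb20 and Nr3c2 are nuclear regulators of hippocampal neurons. Zbtb20, a zinc finger repressor needed for the development of hippocampal pyramidal neurons, lies on chromosome 16 (42875689 to 43634392, GRCm38.p6). In the cortex it read 10.94 at 1.5 months, 10.89 at 4 months, 11.25 at 17 months, and 10.99 at 22 months. In transgenic hippocampus it read 12.78 for NCSTN, 13.00 for MAPT, and 13.69 for 5×FAD. In ICR hippocampus it lay between 13.10 and 13.24 on the 5 arrays, the tightest spread of any of the 9 markers in that group (SD 0.07). All hippocampus arrays stood above all cortex arrays, with a mean of 13.18 ± 0.26 (SD, n = 8) against 11.02 ± 0.16 (SD, n = 4). The log2 difference was 2.16 (SE 0.14, 4.46-fold, limma adjusted p = 2.7e-06), and with ICR arrays alone on the hippocampus side it was 2.17 (SE 0.15, limma adjusted p = 4.2e-06).

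Nr3c2 encodes the mineralocorticoid receptor, the high-affinity receptor for corticosterone in the hippocampus, and lies on chromosome 8 (76898083 to 77245012, GRCm38.p6). Its cortex levels were 6.34, 6.36, 7.03, and 7.17 at 1.5, 4, 17, and 22 months. Its transgenic levels were 9.19 for NCSTN, 8.70 for MAPT, and 8.23 for 5×FAD, and its ICR levels lay between 8.54 and 9.03. The lowest hippocampus array, 5×FAD, was above the highest cortex array, that of 22 months. The difference was 2.09 (SE 0.21, 4.27-fold, limma adjusted p = 4.5e-05), and it was 2.16 (SE 0.23, limma adjusted p = 6.0e-05) for ICR hippocampus against cortex.

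The 3 CA1 markers behaved in 3 ways. Fibcd1 was dim in cortex and clearly present in hippocampus, Spink8 was present in cortex and far higher in hippocampus with 2 low arrays, and Wfs1 was bright in both regions. Fibcd1 encodes a membrane receptor for acetylated groups and lies on chromosome 2 (31813290 to 31846964, GRCm38.p6). In cortex it read 5.66, 4.51, 3.81, and 4.93 at 1.5, 4, 17, and 22 months, and the 17-month signal was not well above background. It read 9.04 for NCSTN, 9.51 for MAPT, and 8.89 for 5×FAD. In the ICR group it read 9.28 and 8.13 for Aβ at 5 and 10 μM, 8.35 and 9.21 for streptozotocin at 2.5 and 3 mg/kg, and 9.41 for scopolamine. No hippocampus array came near the cortex levels. The difference was 4.25 (SE 0.35, 19.0-fold, limma adjusted p = 1.2e-05), and it was 4.15 (SE 0.38, limma adjusted p = 2.4e-05) for ICR hippocampus against cortex. The size rests on the dim cortex signals, and with normexp background correction it was 2.37 (hippocampus against cortex) and still passed.

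Spink8 belongs to the Kazal family of serine protease inhibitors and lies on chromosome 9 (109812203 to 109826628, GRCm38.p6). Its cortex levels were 7.99, 7.76, 8.15, and 8.44 in order of age. It read 12.10 for NCSTN and 12.51 for MAPT, but 10.30 for 5×FAD. It read 12.26 and 12.64 for Aβ at 5 and 10 μM and 12.46 and 12.63 for streptozotocin at 2.5 and 3 mg/kg, but 10.72 for scopolamine. Both low arrays were still above every cortex array. The region difference was 3.87 (SE 0.44, 14.6-fold, limma adjusted p = 1.2e-04), and it was 4.06 (SE 0.48, limma adjusted p = 1.3e-04) for ICR hippocampus against cortex.

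Wfs1 encodes wolframin, a protein of the endoplasmic reticulum membrane that marks CA1 pyramidal neurons and also neurons of the cortical layers. It lies on chromosome 5 (36966104 to 36988982, GRCm38.p6). Cortex levels were 13.40, 12.38, 13.22, and 13.58, transgenic levels were 13.99 for NCSTN, 13.65 for MAPT, and 13.27 for 5×FAD, and ICR levels ran from 13.26 (scopolamine) to 14.78 (streptozotocin, 2.5 mg/kg). The regions overlapped, and the 22-month cortex exceeded the 5×FAD, Aβ 5 μM (13.35), and scopolamine arrays. The difference was 0.61 (SE 0.30, 1.53-fold) and did not pass (limma adjusted p = 0.17), nor did that of ICR hippocampus against cortex (0.68, SE 0.33, limma adjusted p = 0.15).

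The 4 dentate markers all lay higher in hippocampus, but C1ql2 did so only through the transgenic arrays. Dsp encodes desmoplakin, which anchors intermediate filaments at desmosomes, and lies on chromosome 13 (38151294 to 38198577, GRCm38.p6). Its 2 probes disagreed. The A_51_P101460 probe read 2.24, 2.36, 3.82, and 3.03 in the cortex, never well above background. The same probe read 9.13, 8.84, and 8.50 for NCSTN, MAPT, and 5×FAD and 9.20 to 10.00 in the ICR group, always well above background. The other probe, A_51_P201884, was not well above background on any of the 12 arrays. With the bright probe, Dsp was at least 37.1-fold higher in hippocampus than in cortex, a bound that sets the hippocampus mean of 9.39 against the lowest signals that counted as above background. The corresponding bounds were at least 25.0-fold for the transgenic and at least 46.9-fold for the ICR arrays. As the mean of both probes, Dsp read 2.47 ± 0.52 (SD, n = 4) in cortex and 6.23 ± 0.70 (SD, n = 8) in hippocampus, a difference of 3.75 (SE 0.33, limma adjusted p = 2.1e-05). It was 4.06 (SE 0.37, limma adjusted p = 2.1e-05) for ICR hippocampus against cortex. The difference over all hippocampus arrays depends on how dim signals are treated, and was 1.64 with normexp background correction and 6.53 with the bright probe alone, past the test in both.

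Lct encodes lactase, best known from the intestinal brush border and also transcribed in dentate granule neurons, and lies on chromosome 1 (128284756 to 128328318, GRCm38.p6). In cortex it read 8.46, 7.16, 7.80, and 8.24 at 1.5, 4, 17, and 22 months. It read 11.36 for NCSTN, 11.73 for MAPT, and 12.03 for 5×FAD, and it lay between 11.53 and 12.31 in the ICR group. All 8 hippocampus arrays stood above all cortex arrays. The difference was 3.87 (SE 0.23, 14.6-fold, limma adjusted p = 1.7e-06), and it was 3.92 (SE 0.26, limma adjusted p = 2.3e-06) for ICR hippocampus against cortex.

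Tdo2 encodes tryptophan 2,3-dioxygenase, which opens the indole ring in the first step of the kynurenine pathway, and lies on chromosome 3 (81958412 to 81975728, GRCm38.p6). Its signal was dim and was well above background on 6 of 8 hippocampus arrays and on 1 of 4 cortex arrays. It read 1.83, 4.25, 2.49, and 2.39 in cortex. It read 3.79 for NCSTN, 5.47 for MAPT, and 3.83 for 5×FAD, so NCSTN and 5×FAD lay below the 4-month cortex. In the ICR group it read 4.58 to 5.59, above every cortex array. The difference was 2.10 (SE 0.46, limma adjusted p = 0.0062), and 0.39 with normexp background correction (limma adjusted p = 0.013). Transgenic hippocampus alone did not pass against cortex (1.63, SE 0.57, limma adjusted p = 0.092), whereas ICR hippocampus did (2.39, SE 0.50, limma adjusted p = 0.0043). The difference between the 2 hippocampus groups themselves was 0.77 (SE 0.55, limma adjusted p = 0.38).

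C1ql2 encodes a secreted C1q-like protein that granule neurons release at mossy fiber synapses onto CA3, and lies on chromosome 1 (120340582 to 120343174, GRCm38.p6). It was well above background on all 12 arrays. The cortex arrays read 7.94, 7.88, 7.92, and 8.09. The transgenic arrays read 9.60 for NCSTN, 9.24 for MAPT, and 9.65 for 5×FAD. The ICR arrays read 8.33 and 8.21 for Aβ at 5 and 10 μM, 8.30 and 7.90 for streptozotocin at 2.5 and 3 mg/kg, and 7.94 for scopolamine. All transgenic arrays thus stood above all others, and the ICR arrays overlapped the cortex.

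Transgenic hippocampus exceeded cortex by 1.53 in C1ql2 (SE 0.14, 2.89-fold, limma adjusted p = 6.3e-05), among 12.2% of features that passed in that comparison. ICR hippocampus exceeded cortex by 0.17 (SE 0.12, limma adjusted p = 0.32), where 30.1% of features passed. The difference of the 2 hippocampus groups, ICR minus transgenic, was -1.36 (SE 0.13, limma adjusted p = 1.6e-04). C1ql2 was the 1 marker of 9 that passed in this last comparison, in which 11.4% of features passed. The groups differ in strain, in age (7 weeks when the agents were given, against 6 to 12 months), in transgene or injection, and in Xist level, and these cannot be told apart. The 3 other dentate markers gave ICR minus transgenic differences of 0.83 (Dsp, SE 0.40), 0.13 (Lct, SE 0.28), and 0.77 (Tdo2, SE 0.55), none of which passed. The bright Dsp probe read higher on all 5 ICR arrays than on the 3 transgenic arrays, by 0.91 on average (limma adjusted p = 0.10). Over all 8 hippocampus arrays the region difference of C1ql2 was 0.68 (SE 0.11, limma adjusted p = 0.0011). In a fit that took all hippocampus arrays as 1 group, the adjusted p was 0.20.

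**Figure D2:**
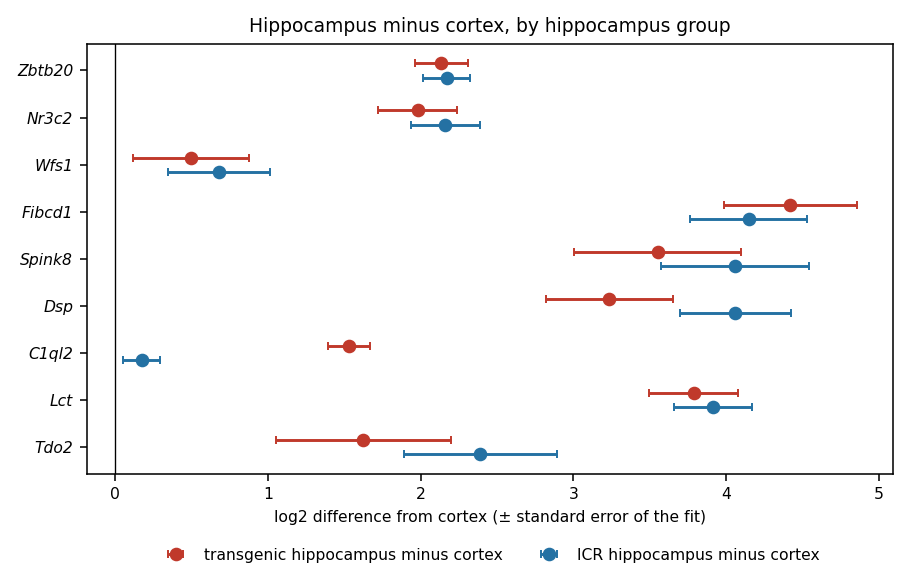
Log2 difference from cortex (x axis) for each marker (y axis), separately for the transgenic and the ICR hippocampus, with the standard error of the limma fit as bars. The bars of both hippocampus groups overlap for Zbtb20, Nr3c2, Wfs1, Fibcd1, Spink8, Lct, and Tdo2. Those of Dsp fall just short of touching, and those of C1ql2 lie far apart (1.53 against 0.17).

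The promoters of the 4 dentate markers are shown because C1ql2 parted from the other 3 in the ICR group. Each run below gives the 250 bases before the RefSeq start of the gene, 5′ to 3′ on its own strand (RefSeq, GRCm38.p6), with every E-box, CANNTG, in capitals. An E-box is the site of basic helix-loop-helix factors, a family that includes regulators of granule neurons. Positions are chr13:38151044-38151293 (plus strand) for Dsp, chr1:120340332-120340581 (plus strand) for C1ql2, chr1:128328319-128328568 (minus strand) for Lct, and chr3:81975729-81975978 (minus strand) for Tdo2.

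Dsp: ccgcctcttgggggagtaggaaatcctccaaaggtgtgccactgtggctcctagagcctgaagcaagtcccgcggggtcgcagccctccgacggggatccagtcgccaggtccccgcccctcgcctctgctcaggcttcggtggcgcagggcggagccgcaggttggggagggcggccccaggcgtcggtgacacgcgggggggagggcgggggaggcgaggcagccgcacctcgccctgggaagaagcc

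C1ql2: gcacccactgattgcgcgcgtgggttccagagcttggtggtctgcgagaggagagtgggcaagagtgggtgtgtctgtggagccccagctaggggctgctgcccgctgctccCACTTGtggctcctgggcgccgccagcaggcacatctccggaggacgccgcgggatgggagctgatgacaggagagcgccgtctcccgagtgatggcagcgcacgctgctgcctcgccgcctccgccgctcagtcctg

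Lct: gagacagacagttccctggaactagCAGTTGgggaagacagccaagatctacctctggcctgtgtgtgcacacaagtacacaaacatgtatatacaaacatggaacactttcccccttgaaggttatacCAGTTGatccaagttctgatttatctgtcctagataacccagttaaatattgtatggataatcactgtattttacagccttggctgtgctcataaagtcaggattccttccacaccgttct

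Tdo2: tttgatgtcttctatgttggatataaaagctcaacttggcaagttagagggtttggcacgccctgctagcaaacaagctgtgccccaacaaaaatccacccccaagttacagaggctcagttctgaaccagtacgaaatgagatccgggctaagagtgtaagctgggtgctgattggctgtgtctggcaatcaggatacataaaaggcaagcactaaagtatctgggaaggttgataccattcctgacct

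C1ql2 holds 1 E-box, Lct holds 2, and Dsp and Tdo2 hold 0 in these windows, and 66.0% of 27025 RefSeq promoter windows of this length hold at least 1. The Dsp window holds GGGCGG or its complement 4 times, a motif that 32.9% of windows hold, and the windows of the other 3 dentate markers hold it 0 times. Tdo2 holds TATAAA 1 time, as 13.0% of windows do, and CCAAT 1 time, as 34.5% do, and the other 3 hold neither. The windows differ in base composition, with 72.4% G and C in Dsp and 68.8% in C1ql2 against 42.8% in Lct and 46.4% in Tdo2, around a median of 52.0% over all windows. The motifs were searched on both strands and overlap no other motif searched, and a match is a description of letters alone. Of the 9 markers, 8 matched an entry of the promoter table used here, and Spink8 did not.

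The other genes of each field, from lists drawn up by symbol with earlier results of these data known, were measured in the same fit. Of 12 dentate genes, 8 were higher in hippocampus and 0 lower, with a median difference of 1.56. For ICR hippocampus against cortex 7 of the 12 were higher, since C1ql2 did not pass. Glis3, counted in both comparisons, was well above background on 2 of 3 transgenic arrays, 0 of 5 ICR arrays, and 0 of 4 cortex arrays. Its ICR call thus compares signals near background. Beside the members, Prox1, the homeobox factor that defines granule neuron identity and that was picked after its values were seen, rose by 2.82 (SE 0.15, limma adjusted p = 7.9e-07). Of 7 CA1 genes, 3 were higher and 1 lower (median 0.50). Of 8 CA3 genes, 5 were higher and 1 lower (median 0.68). The largest rise was Npy2r, a neuropeptide Y receptor (3.99, SE 0.25), followed by Homer3, a postsynaptic scaffold (1.31, SE 0.10), and the fall was Coch, the gene of the secreted protein cochlin (-2.38, SE 0.27). Between the hippocampus groups, Homer3 and Bok (0.49, SE 0.11, limma adjusted p = 0.020) were the CA3 genes that passed. The counts of the CA1 and CA3 lists were the same for ICR hippocampus against cortex, at 3 higher and 1 lower and at 5 higher and 1 lower. Cdh24, counted among the 5 CA3 genes in both comparisons, was well above background on 2 of 3 transgenic arrays. It was so on 0 of 5 ICR and 0 of 4 cortex arrays, so its ICR call compares signals near background.

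Of 8 CA2 genes, Nr3c2 among them, 7 were higher and 1 lower (median 1.32), as for ICR hippocampus against cortex (median 1.38), with the Aβ 10 μM array left out of the fit of 1 of them for an outlier spot. Avpr1b, the vasopressin receptor of CA2 neurons, was not well above background on any cortex array and was at least 4.63-fold higher in hippocampus. The test was made on the measured difference, 4.59 (SE 0.18, limma adjusted p = 1.4e-07), whose size rests on the dim cortex signals, and not on that bound. The fall was Pcp4 (-1.26, SE 0.12), a calmodulin regulator that is also strong in deep cortical layers. Homer3 matched C1ql2 in direction between the hippocampus groups, with an ICR minus transgenic difference of -1.02 (SE 0.12, limma adjusted p = 4.4e-04). Its transgenic arrays read 8.77 to 9.10, its ICR arrays 7.67 to 7.99, and its cortex arrays 6.75 to 7.06, so unlike C1ql2 its ICR arrays stood above the cortex.

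Lists of neighboring tissue moved as follows. Of 10 genes of cortical excitatory neurons, 7 were lower in hippocampus, led by Lamp5 (-3.16, SE 0.22) and Foxp2 (-1.87, SE 0.31), and 1, Tshz2, was higher (1.09, SE 0.24). Of 7 striatal genes, 6 were lower, among them Adora2a (-1.18, SE 0.20), the adenosine receptor of striatal projection neurons. Of 7 thalamic genes, 3 were higher, led by Prkcd (1.34, SE 0.20) and Plekhg1 (1.33, SE 0.37), the latter well above background on 3 of 8 hippocampus arrays and on 0 of 4 cortex arrays. Of 5 interneuron genes, 3 were lower, led by Vip (-1.69, SE 0.18) and Pvalb (-0.71, SE 0.15). For ICR hippocampus against cortex 6 cortical genes were lower and 1 higher, 6 striatal genes and 3 interneuron genes were lower, and 4 thalamic genes were higher and 1 lower.

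Among glial lists, 2 of 6 oligodendrocyte genes were higher, among them Mbp (0.49, SE 0.11), a structural protein gene of myelin. Of 6 astrocyte genes, 4 were higher, led by Gfap (1.53, SE 0.31) and Aqp4 (0.60, SE 0.20), and Aldh1l1 was lower (-0.46, SE 0.10). For ICR hippocampus against cortex 1 oligodendrocyte gene and 2 astrocyte genes were higher and Aldh1l1 was lower. Gfap (0.94, limma adjusted p = 0.061) and Aqp4 (0.53, limma adjusted p = 0.091) did not pass there, and Gfap was higher in transgenic than in ICR hippocampus, with an ICR minus transgenic difference of -1.59 (SE 0.37, limma adjusted p = 0.021). Of 6 microglial genes, 0 passed in limma, and 0 had an unadjusted p under 0.05, and the same held for ICR hippocampus against cortex. These glial and regional markers move with the same region contrast as the 9 genes, and their part in it was not tested.

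Choroid plexus, the secretory epithelium that lies against the hippocampus in the ventricles, varied most between arrays. Of its 8 genes, 5 were higher in hippocampus, led by Ttr (7.32, SE 1.94) and Otx2 (5.79, SE 1.24), and 5 were higher for ICR hippocampus against cortex. Their mean log2 level was 8.68 on the 17-month cortex array against 4.93 to 5.71 on the other 3. It was 6.95 and 7.43 on the streptozotocin arrays against 11.8 to 12.3 on the other 3 ICR arrays, with Folr1 left out for Aβ 10 μM because of an outlier spot. Without these 3 arrays, 7 of the 9 markers passed in hippocampus against cortex, and the one lost was Tdo2 (1.94, limma adjusted p = 0.059). The other calls were kept, as was the failure of Wfs1.

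**Figure D3:**
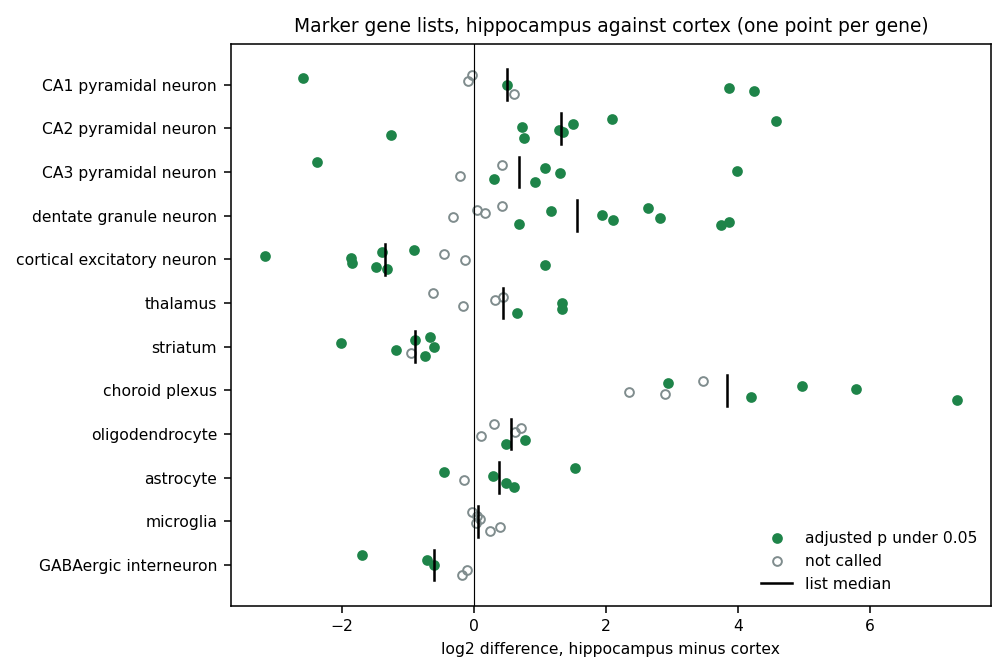
Log2 difference of hippocampus minus cortex (x axis) for each gene of the marker lists (y axis), filled where the limma adjusted p was under 0.05, with the median of each list as a vertical line. Dentate (median 1.56) and CA2 (1.32) genes lie mostly above 0 and cortical excitatory neuron genes (-1.35) mostly below.

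Within a hippocampus group, the level on an array was compared with the average of the remaining arrays, with no test since each model has 1 array. Such differences sum to 0 over the arrays of a group, so an array high in a gene makes the others low. The share of features at least 2-fold away from the other arrays was 7.1% for NCSTN, 5.7% for MAPT, and 12.9% for 5×FAD. It was 6.21% and 7.02% for Aβ at 5 and 10 μM, 8.4% and 6.56% for streptozotocin at 2.5 and 3 mg/kg, and 6.41% for scopolamine. Of the 72 values of the 9 markers on these 8 arrays, 6 were past 2-fold, and 3 of those 6 were of Spink8. A share of 6 in 72 lies within the range of the shares over all features.

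Spink8 on the 5×FAD array differed by -2.002 from the mean of the NCSTN and MAPT arrays and was thus 4.01-fold lower. Of 21816 features well above background on the 3 transgenic arrays, 0.651% were as far below or farther on that array. On the MAPT array Spink8 was 1.31 above the mean of the others, which rests on the low 5×FAD array, since against NCSTN alone it was 0.41 above. On the scopolamine array Spink8 differed by -1.77 from the mean of the other 4 ICR arrays and was thus 3.42-fold lower, and 8 of 19303 features well above background in that group (0.0414%) were as far below. The span of Spink8 over the transgenic arrays (2.21) and over the ICR arrays (1.92) exceeded the 95th percentile over such features in each group (1.73 and 1.32). In the ICR group the spans of Dsp, as the mean of both probes (1.62), and of Wfs1 (1.53) exceeded it too.

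The other CA1 genes differed less. On the 5×FAD array all 7 CA1 genes lay below the mean of the other 2 arrays, with a median of -0.55 against -0.03 for all features. Of these, 3 passed 2-fold, among them Spink8 and Ccn3 (-1.01), a secreted matricellular protein gene, while Wfs1 (-0.55) and Fibcd1 (-0.38) did not. The fall on this array was not particular to CA1 genes. The 5 interneuron genes averaged 11.74 on 5×FAD, against 12.37 for NCSTN and 12.44 for MAPT. The 10 cortical excitatory neuron genes averaged 7.56, against 8.06 and 7.99. The dentate list had a median of 0.12 above the other arrays. On this array the mean log2 level of the 6 microglial genes was 12.2, against 10.9 and 11.0 for MAPT and NCSTN. The part of these lists in the CA1 values was not tested. On the scopolamine array 6 of 7 CA1 genes lay below the others (median -0.28), with Wfs1 at -0.71, and Fibcd1 stood at 0.67. On the array of streptozotocin at 2.5 mg/kg, Wfs1 was 1.20 higher (2.30-fold), Spink8 stood at 0.40, and Fibcd1 at -0.65. Wfs1 and Fibcd1 thus lay on opposite sides of the other arrays there. The 10 cortical excitatory neuron genes, a list without Wfs1, averaged 8.56 on that array, against 7.97 to 8.23 on the other ICR arrays. Their part in the Wfs1 value was not tested.

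Of the 4 dentate markers, Dsp and Tdo2 passed 2-fold on 1 array each. C1ql2 and Lct moved by no more than 0.60 on any array within its group. Dsp on the array of streptozotocin at 3 mg/kg differed by -1.16 from the other ICR arrays (2.23-fold lower), on which 11 of 12 dentate genes lay below, with a median of -0.24. With the bright Dsp probe alone this was -0.66, short of 2-fold. Tdo2 on the MAPT array was 1.66 above the NCSTN and 5×FAD arrays (3.16-fold), but the NCSTN signal was not well above background, and with normexp it was 0.34 above. Glis3, a zinc finger gene of the dentate list, was 1.07 above on the 5×FAD array, and the signal was well above background on 2 of the 3 transgenic arrays.

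CA3 genes kept a median near 0. On the 8 arrays it lay between -0.21 and 0.14. Coch passed 2-fold on the array of streptozotocin at 2.5 mg/kg (-1.12, at 6.33 against 7.06 to 7.93 on the other ICR arrays). Iyd passed on the 5×FAD array (-1.07), but it was not well above background on any of the 12 arrays.

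**Figure D4:**
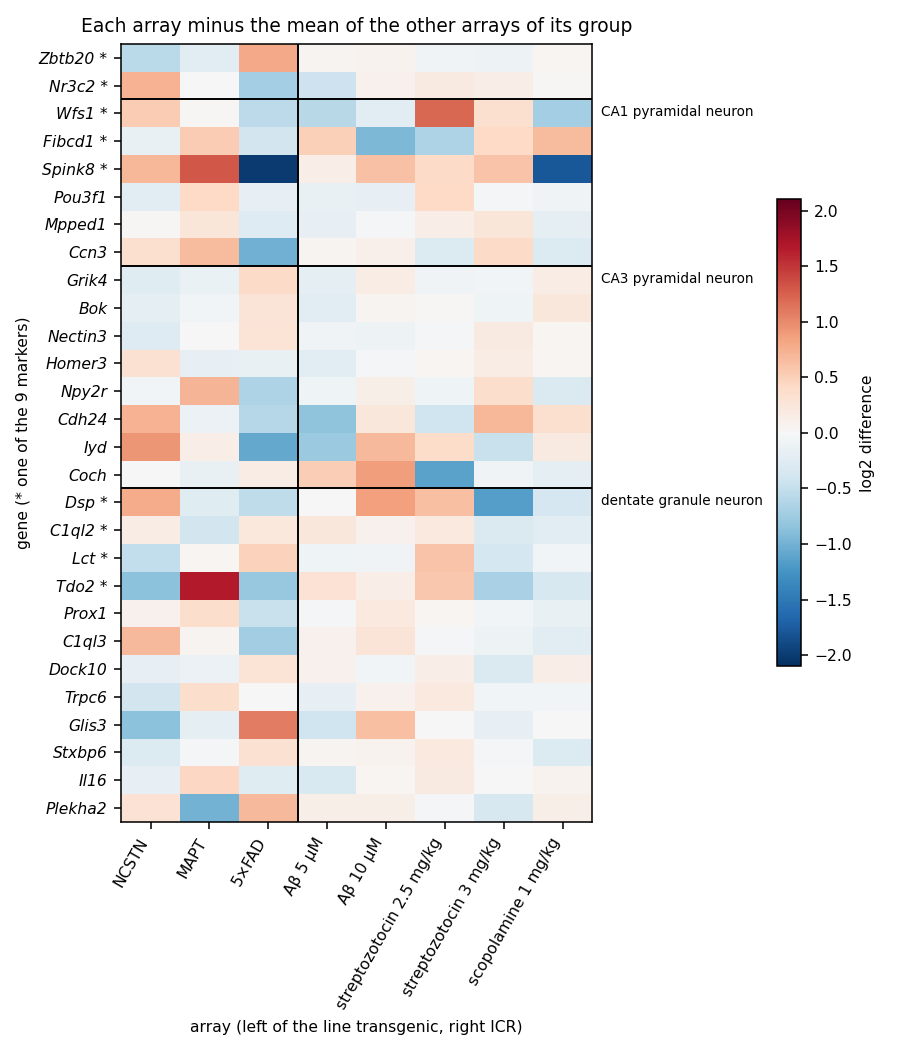
Log2 difference of each hippocampus array from the mean of the other arrays of its group (color, from -2.1 to 2.1) for the markers and other CA1, CA3, and dentate genes (rows) on 8 arrays (columns). The darkest cells are Spink8 on the 5×FAD (-2.002) and scopolamine (-1.77) arrays and Tdo2 on the MAPT array (1.66).

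The genes whose pattern over the 8 hippocampus arrays was most like that of the markers were looked up after subtracting group means, among 14197 other genes well above background on all 8. For the mean of the 4 dentate markers they were Nxph4 (Pearson r of 0.95), Ift80 (0.94), Siva1 (0.93), Ocln (0.93), and Zfp236 (0.91). For the mean of the 3 CA1 markers they were Tcf19 (0.99), Zfp609 (0.99), Zc3h12c (0.98), Ccdc92b (0.98), and Ino80 (0.98). The latter mean follows Spink8, whose 5×FAD and scopolamine values set most of its spread. With 8 points that share a normalization and so many genes searched, high values are a description of these arrays.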

How the data were processed

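Each of the 12 arrays carried RNA of 3 pooled animals with an RNA integrity number above 7. The authors deposited the intensity of each spot as the scanner software gave it, green channel only although the labels name Cy5, with no normalization between arrays. A matrix of intensity values that the authors also deposited was normalized in separate sets of arrays and was used here only as an alternative. Processed intensities were taken as log2, outlier spots (110 to 234 per array) were left out, and spots of 1 probe were averaged. All 39429 probes were quantile normalized over the 12 arrays. The filter of the methods, 1.4-fold over local background, was tried as an alternative. Asked of all 12 arrays it kept 36519 probes, and asked of at least 3 arrays it kept all 39429. Accessions gave a symbol for 27502 probes (RefSeq, GRCm38.p6), and probes of a gene were averaged, which gave 32809 features. A feature with a missing value on an array (60 features) was fitted without that array. The 3 groups were fitted with limma 3.58.1 in R 4.3.3 (eBayes with trend), and p-values were adjusted with Benjamini-Hochberg over all features. They measure the spread between arrays of different models, and precision is limited by how few arrays there are. On simulated data for hippocampus against cortex (32749 features), 55% of 100 features changed 2-fold and 89% of 100 changed 4-fold were called, with 7 false calls. The deposited files hold the median, not the mean, of each spot, so normexp used medians. The alternatives were other scalings, background corrections, filters, probe rules, fits, array sets, references, and thresholds. Named genes were the members, up to 2 largest rises and falls of each other list, genes of the CA1, CA3, and dentate lists past 2-fold on an array, and the 5 genes most alike in pattern. Some genes that this rule covers are not reported here. The members and lists were chosen with earlier results of these data known. No deposited column was left without a sample (0).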

Additional observations from a re-analysis of the deposited data

Results flagged for a closer look

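Spink8 on the scopolamine array, at 10.72, lay apart from the other 4 ICR hippocampus arrays (12.26 to 12.64), by Dixon's criterion. Nr3c2 on the Aβ 5 μM array, at 8.54, lay apart from the other 4 ICR arrays (8.90 to 9.03) by the same criterion, with a far smaller gap. The 9 markers were each tested in 2 groups of arrays, 18 tests in all, of which chance gives about 1 in 20. The 3 transgenic arrays are too few for this criterion, and the low Spink8 value on the 5×FAD array was therefore not tested. C1ql2 differed between the hippocampus groups by -1.36 (ICR minus transgenic, limma adjusted p = 1.6e-04), with all 3 transgenic arrays above all 5 ICR arrays. Its difference ran from -1.49 to -1.11 over the 20 alternatives tried, of which the 1.4-fold filter on at least 3 arrays left out no probe, and passed in each.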

How the results depend on the processing

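In hippocampus against cortex, Zbtb20, Fibcd1, Spink8, Dsp, Lct, and Nr3c2 kept their direction and passed under all 23 alternatives, and Wfs1 passed under none. One of the 23, the 1.4-fold filter on at least 3 arrays, kept all 39429 probes and so could change nothing. Tdo2 lost its call with C57BL/6 arrays alone (1.63, adjusted p = 0.20) and without the 3 arrays of differing choroid plexus level (1.94), a setting chosen after seeing the data. C1ql2 lost its call in the 2-group fit (0.68) and with ICR and cortex arrays alone (0.17). Leaving out 1 array gave 6993 to 10302 features called in this comparison and 8 markers throughout. It gave 2806 to 4293 features and 7 to 8 markers for transgenic hippocampus against cortex, and 8200 to 11663 features and 7 markers for ICR hippocampus against cortex. For ICR against transgenic hippocampus it gave 1915 (without MAPT) to 4860 features, 2483 without Aβ 10 μM, and 1 marker throughout. In the subfield lists it gave 4 called genes for CA1, 8 for CA2, 4 to 6 for CA3, 8 for dentate, and 8 for cortical neurons.

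With a threshold of 0.01, the features called fell to 5093 (hippocampus against cortex), 1772 (transgenic), 6066 (ICR), and 1269 (ICR against transgenic). C57BL/6 arrays alone gave 2559 features and 5 CA2 genes. The deposited matrix, whose sets of arrays were normalized apart, moved the median of all features by 0.33 and gave 19964, 22262, and 19263 features for the whole hippocampus, the ICR arrays, and ICR against transgenic. Of its calls 71.1% were higher in hippocampus, against 47.3% here. In ICR against transgenic hippocampus, scaling to the 75th percentile gave 9701 features, and leaving out the 3 choroid plexus arrays gave 2289. There normexp called 2 markers (Dsp added) and the matrix 4.

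Differences of ICR minus transgenic that had not passed changed sign as follows. With the matrix they were -0.50 (Zbtb20), -0.062 (Wfs1), -0.27 (Lct), and -0.15 (Nr3c2), and without the 3 choroid plexus arrays Wfs1 was -0.22. Leaving out 1 array gave -0.15 to 0.30 for Zbtb20 (below 0 without NCSTN or MAPT), -0.056 to 0.36 for Wfs1 (below 0 without streptozotocin at 2.5 mg/kg), and -0.16 to 0.94 for Spink8 (below 0 without 5×FAD). It gave -0.045 to 0.29 for Lct (below 0 without NCSTN) and -0.057 to 0.42 for Nr3c2 (below 0 without 5×FAD). At 1.5-fold, 23 of the 72 marker values within hippocampus groups were counted, against 6 at 2-fold. The share of all features past 1.5-fold is not given here, so the 23 cannot be set against it. The cause of these moves was not tested.

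No paired analysis was possible, since the cortex and the hippocampus arrays came from different mice, with 1 array per model. The slide could not be used as a block, since the files give none here.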
